A study of Homo sapiens with 124 samples.

Results

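Chemokines are small secreted proteins that steer the movement of leukocytes, and many of their genes lie side by side in clusters. Contacts of 10 of these genes with the nuclear lamina were read in single cells. The genes were CXCL8, CXCL1, CXCL10 and CXCL13 on chromosome 4, CXCL12 on chromosome 10, CCL20 on chromosome 2, and CCL2, CCL5, CCL3 and CCL4 on chromosome 17. They were chosen by name and placed by their hg19 positions, not by their contacts. Bins of 100 kb that overlap a gene are called gene bins, and all other usable bins within 1 Mb of a gene are called flanks. The genes fell into 11 gene bins, since CCL3 and CCL4 share 1 bin and CXCL13 and CCL5 span 2 bins each. Gene bins and flanks together made up 141 bins in 5 windows, of which 138 were usable, out of 26426 usable bins in the table. The other 3 bins lay on chromosome 17 from 34500001 to 34800000, just above CCL3 and CCL4 in position, and held no value or a value of 0 in every cell.

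The cells were KBM7, a near-haploid human line derived from a chronic myeloid leukaemia. All 124 samples were labelled as single haploid cells of clone 14, so a single clone stands for the line. Each cell carried Dam-LaminB1, a bacterial adenine methyltransferase fused to a main protein of the nuclear lamina, and it had been induced with 0.5 nM Shield1 for 15 h before sorting by small size and by both markers of a Fucci cell cycle reporter. The table held 118 of the 124 cells as 1 group with no control group. A profile of unfused Dam was not used here, so the accessibility of a region and its lamina contact cannot be told apart except as far as the expected reads account for it.

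In DamID, adenines in GATC motifs that come near the lamina are methylated in the living cell, and the methylated fragments are amplified and sequenced. Regions at the lamina are known to be poor in genes and mostly silent. Chemokines of the CXC and CC kinds differ in the spacing of the first cysteines of the protein and act through G protein-coupled receptors on leukocytes. Inflammatory chemokines such as CXCL8 are known to be switched on quickly by NF-kappa B in myeloid and stromal cells, whereas CXCL12 and CXCL13 direct the steady traffic of blood stem cells and B cells. Expression was not measured in these cells.

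The sequences before the gene starts are shown for 4 genes, because CXCL8 and CXCL1 lay in neighbouring bins that were contacted at different frequencies, CXCL10 lay in a bin without contact on the same chromosome, and CCL20 had about the same frequency as CXCL1. They are RefSeq sequences of the build GRCh38.p14 and hold the 250 bases before the annotated start, read on the strand of the gene. Their coordinates belong to that build and cannot be set against the hg19 bins below. Capitals mark GATC, which is the motif of Dam, and GGAATTTCC or its reverse complement GGAAATTCC, a sequence of the kappa B type. Both strands were searched, and these motifs do not overlap each other. CXCL8 spans chr4:73740319-73740568 on the plus strand, CXCL1 spans chr4:73869143-73869392 on the plus strand, CXCL10 spans chr4:76023498-76023747 on the minus strand and CCL20 spans chr2:227813592-227813841 on the plus strand.
CXCL8: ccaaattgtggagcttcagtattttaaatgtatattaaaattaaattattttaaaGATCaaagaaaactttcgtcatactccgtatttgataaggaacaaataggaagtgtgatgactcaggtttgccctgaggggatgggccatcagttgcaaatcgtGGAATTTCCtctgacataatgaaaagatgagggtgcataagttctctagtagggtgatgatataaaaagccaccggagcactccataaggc
CXCL1: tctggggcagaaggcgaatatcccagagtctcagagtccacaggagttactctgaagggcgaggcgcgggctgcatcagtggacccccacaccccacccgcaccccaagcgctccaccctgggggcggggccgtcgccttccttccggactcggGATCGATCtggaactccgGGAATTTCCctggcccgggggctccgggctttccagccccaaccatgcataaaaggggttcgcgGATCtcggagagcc
CXCL10: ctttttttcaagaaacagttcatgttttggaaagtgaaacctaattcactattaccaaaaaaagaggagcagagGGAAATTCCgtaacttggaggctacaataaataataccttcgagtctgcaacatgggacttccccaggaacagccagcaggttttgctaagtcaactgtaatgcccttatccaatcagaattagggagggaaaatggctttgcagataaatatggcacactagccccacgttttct
CCL20: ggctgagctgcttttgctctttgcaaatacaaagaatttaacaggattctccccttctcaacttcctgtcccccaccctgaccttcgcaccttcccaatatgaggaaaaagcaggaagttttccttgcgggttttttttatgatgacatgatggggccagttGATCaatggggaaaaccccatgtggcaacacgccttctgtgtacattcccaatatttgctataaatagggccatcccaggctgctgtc

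Of the 10 genes, 7 were matched to a promoter entry, and CXCL13, CXCL12 and CCL3 held neither motif in this window. Other spellings of the kappa B site were not searched, so genes without a match, CCL20 among them, may still hold such a site. Genes with a match may likewise hold more. The searched sequence was found once each before CXCL8, CXCL1 and CXCL10, at 91, 78 and 176 bases before the start, in 3 of the 7 matched genes. It was found in 0.413% of 35116 human promoters of the same length, and these shares were not tested against each other. GATC was found in 3 of the 7, with 1 match before CXCL8, 3 before CXCL1 and 1 before CCL20, and in 35.8% of all promoters. These matches are letters in a window and do not show that a factor binds there. A bin holds many more GATC motifs than such a window, and their number per bin was not counted here.

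A bin was called in contact in a cell if its ratio of observed to expected reads was at least 1. Its contact frequency is the share of the 118 cells that were in contact there, in percent. Recovered reads per cell ranged from 28372 to 385661 with a median of 135782, and a ratio of 1 in the median bin stood for 1.17 reads in the shallowest cell, 5.63 in the median cell and 15.9 in the deepest. Per cell, 33.0% ± 5.47 of the usable bins were in contact (SD, n = 118). The cells numbered 96 to 124 differed from the cells numbered 1 to 94, a split seen only in the data, with 36.5 against 31.9% of bins in contact and a median of 161506 against 133746 reads. Values are therefore also given for these 28 and 90 cells, whose numbers carry no meaning in the labels. The labels name no cultures, so cells are not replicates, no test between conditions was possible, and exact 95% Clopper-Pearson intervals cover the counting of cells only.

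The genes covered nearly the whole range from no contact to contact in most cells. CXCL1 and CCL20 were in contact in about 6 of every 10 cells, CXCL8 and CXCL13 in a minority, CXCL12 in few, and the chromosome 17 genes and CXCL10 in almost none. No gene bin reached 80%, a level that 15.1% of all usable bins reached. The number of gene bins at 20 to under 80% was 4 of 11, against 33.9% of all usable bins. The other 7 of the 11 lay under 20%, as did 51.1% of all usable bins. Among them, 3 gene bins had no contact in any cell, and 22.3% of all usable bins had none. The mean over the 11 gene bins was lower than the mean over all usable bins, but equal to the median frequency of usable bins, 17.8%. Whether the gene bins lay below their surroundings depended on how the loci were weighted. Per cell, 17.8% ± 11.5 of the gene bins and 23.0% ± 7.99 of the flanks were in contact, against 33.0% of all usable bins (SD, n = 118). The gene bins minus the flanks gave -5.24 percentage points ± 9.04, with the gene bins lower in 87 cells and higher in 31. That comparison weights the loci unequally, since CCL20 gives 1 gene bin and 20 flank bins with a mean of 63.3%. When each gene bin was set against the other usable bins within 1 Mb of its own gene, bins of other genes included, a comparison chosen after seeing the data, the 11 gene bins had 17.8% ± 11.5 and those bins 17.7% ± 6.91, a difference of 0.0816 points ± 8.70, above 0 in 55 cells and below 0 in 59. By this measure 4 gene bins lay above their own surroundings and 7 below, from 22.5 points at CXCL1 to -15.0 points at CXCL10. The flanks held 8 bins at 80% or more, all of them beside CCL20, and 41 bins at 20 to under 80% among 127.

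**Figure D1:**
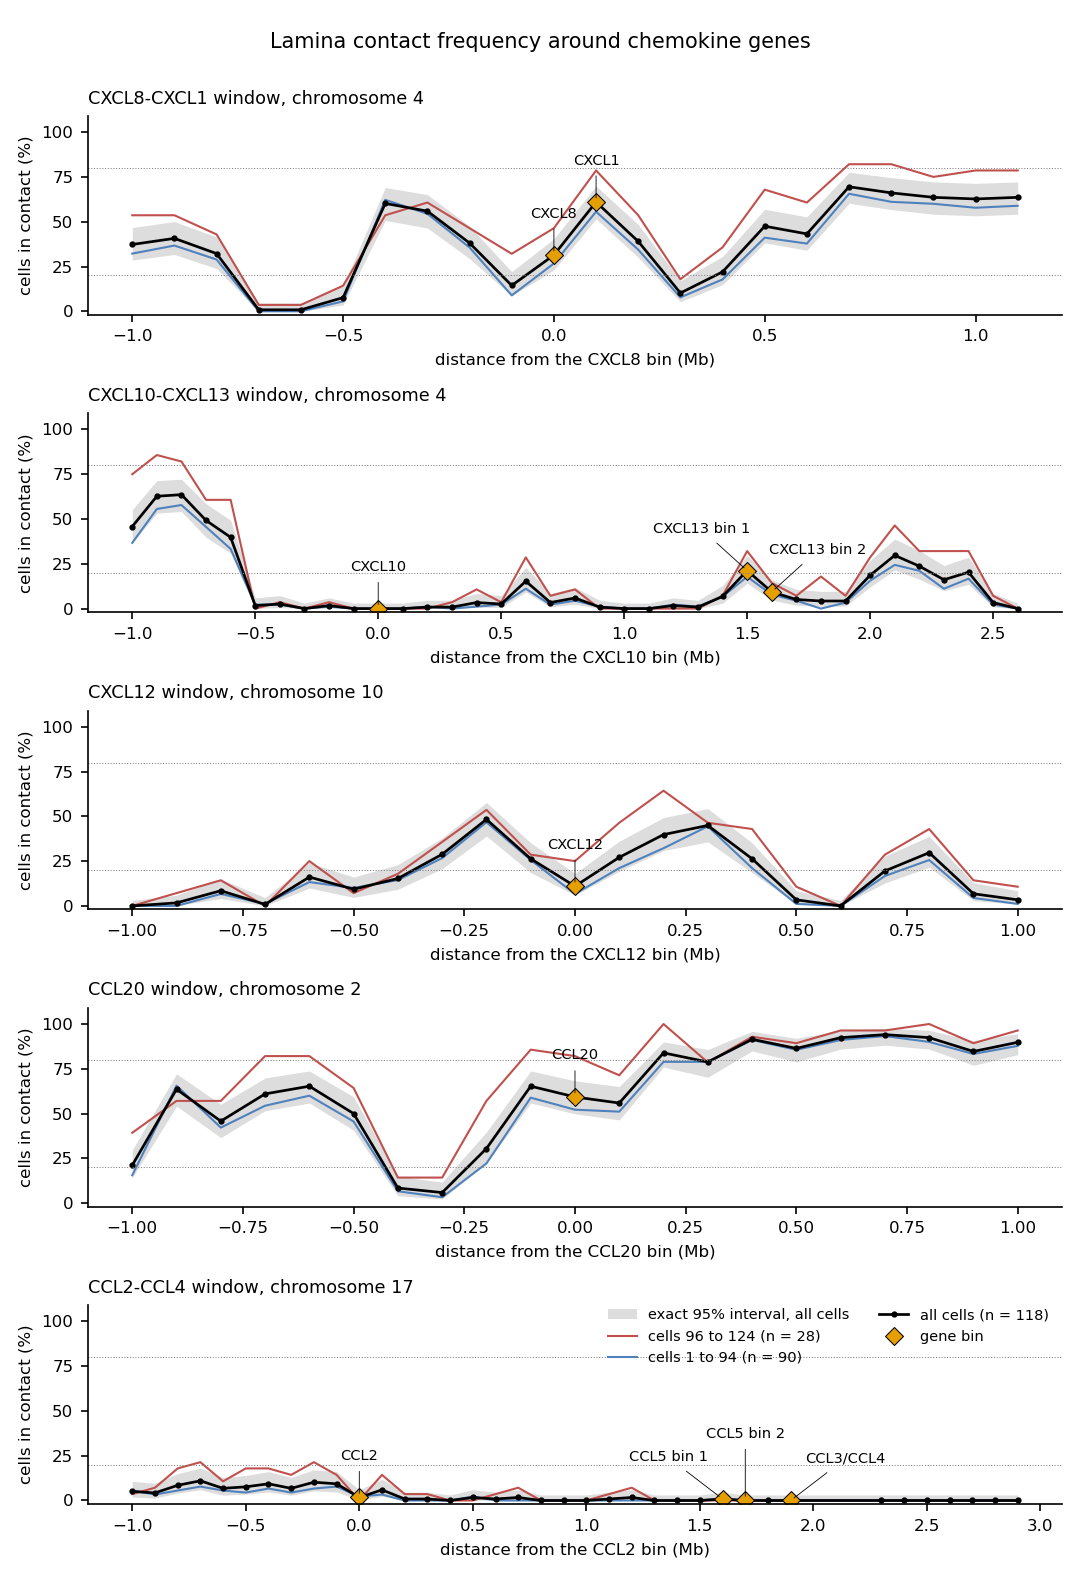
Contact frequency in percent of cells along the 5 windows, against the distance in Mb from the named gene bin, with gene bins as diamonds, the grey band as the exact 95% interval over 118 cells, and separate lines for cells 96 to 124 (n = 28) and cells 1 to 94 (n = 90). The dotted lines stand at 20 and 80%, the line of the CCL2-CCL4 window passes over the 3 bins without usable values, and over all 118 cells the CCL20 window is the single one with bins above 80%.

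CXCL8 and CXCL1 encode ligands of CXCR2 that attract neutrophils, and CXCL8 also acts through CXCR1. Their bins are neighbours on chromosome 4, CXCL8 in 74600001 to 74700000 and CXCL1 in 74700001 to 74800000. The CXCL8 bin had a lowest ratio of 0, a median of 0.610 and a highest of 3.22, and no read in 33 of 118 cells. The CXCL1 bin had a lowest ratio of 0, a median of 1.26 and a highest of 5.57, and no read in 14 cells. The median cell was thus above the contact value at CXCL1 and below it at CXCL8. CXCL8 was in contact in 37 cells, or 31.4% (exact 95% interval 23.1 to 40.5%), with 46.4% of cells 96 to 124 and 26.7% of cells 1 to 94. CXCL1 was in contact in 72 cells, or 61.0% (51.6 to 69.9%), with 78.6% of cells 96 to 124 and 55.6% of cells 1 to 94. CXCL1 was the more frequent of the pair in both sets of cells.

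The difference of 29.7 percentage points between these neighbours was large for bins that touch. Over 6778 pairs of neighbouring bins that both lay at 20 to under 80%, as these do, the median difference was 6.78 points, and 5.77% of pairs differed by at least as much. Over all 26246 pairs of neighbouring usable bins, the median was 3.39 points and the share 4.75%. Among the cells in contact at just 1 of these bins, the difference ran 1 way in all but 1 cell. Ratios were not so ordered, since cell 4, with both in contact, had 3.22 at CXCL8 and 1.40 at CXCL1. Both bins were in contact in 36 cells, CXCL1 alone in 36 cells, CXCL8 alone in 1 cell and neither in 45 cells. Among the 37 cells that differed, CXCL8 alone made up 2.70% (exact 95% interval 0.0684 to 14.2%). In cells 96 to 124 there were 9 cells with CXCL1 alone and 0 with CXCL8 alone, and in cells 1 to 94 there were 27 and 1. CXCL8 was in contact in 50.0% of the cells with CXCL1 in contact and in 2.17% of the cells without. Contacts at CXCL8 were therefore nested in those at CXCL1, with 97.3% of the CXCL8 cells also in contact at CXCL1. Such nesting was common, since the same share had a median of 92.6% in 391 pairs of neighbours at 20 to under 80% that differed by at least 29.7 points, and 84.7% of those pairs lay below 97.3%.

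The cells with CXCL1 alone still had reads at CXCL8. In those 36 cells the CXCL8 ratio had a lowest value of 0, a median of 0.622 and a highest of 0.988, and 5 of them had no CXCL8 read. In the 45 cells with neither gene in contact, the CXCL8 ratio had a median of 0 and was 0 in 28 cells, and the CXCL1 ratio had a median of 0.312. The CXCL8 values of the cells with CXCL1 alone were therefore spread over the whole range below the contact value. The single cell with CXCL8 alone had a CXCL8 ratio of 1.31 and a CXCL1 ratio of 0.189. In the 36 cells with both in contact, the median ratios were 1.40 at CXCL8 and 1.80 at CXCL1.

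**Figure D2:**
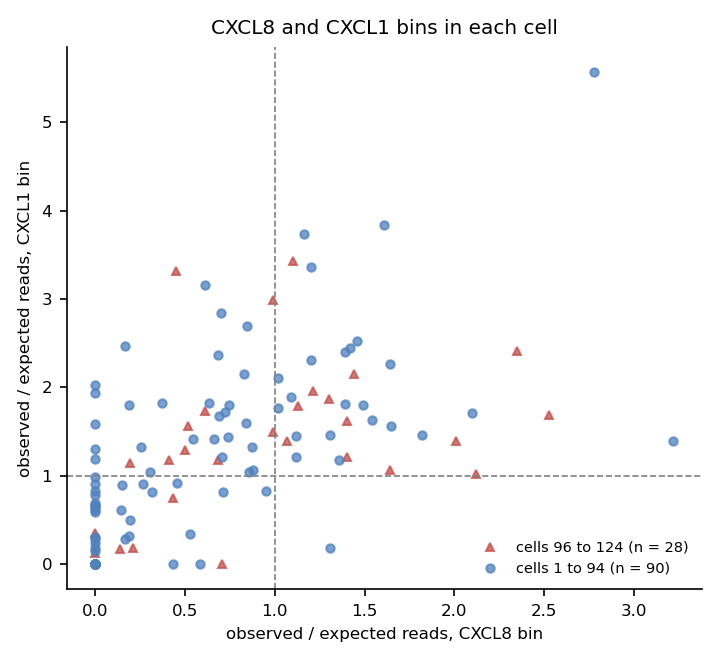
Ratio of observed to expected reads in the CXCL8 bin (x axis) and in the CXCL1 bin (y axis), with 1 point per cell, triangles for cells 96 to 124 (n = 28) and circles for cells 1 to 94 (n = 90), and dashed lines at the contact value of 1. The lower right field, CXCL8 in contact without CXCL1, holds 1 cell, and the upper left field holds 36.

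The pair formed a local peak of contact. The CXCL8 bin was in contact without its lower neighbour, 74500001 to 74600000 at 14.4%, in 25 cells and the reverse held in 5 cells, so CXCL8 alone made up 83.3% of the cells that differed (exact 95% interval 65.3 to 94.4%). CXCL1 was in contact without its higher neighbour, 74800001 to 74900000 at 39.0%, in 34 cells and the reverse held in 8 cells, or 81.0% (65.9 to 91.4%). The CXCL1 bin thus stood above the bins on both sides of it. It exceeded the mean of the 20 other usable bins within 1 Mb, 38.5%, by 22.5 percentage points ± 39.8 per cell. CXCL8 minus the other usable bins within 1 Mb of it, at 38.6%, gave -7.29 points ± 41.2. Each of these sets of bins includes the bin of the other gene. The SDs over cells exceeded both differences. Within the CXCL8 to CXCL1 window of 2.2 Mb, the highest bin was 75300001 to 75400000 at 69.5% and the lowest was 73900001 to 74000000 at 0.847%. The nearest bin at 80% or more lay 3.40 Mb from CXCL8, at 71200001 to 71300000 with 80.5%. In the gene order of GRCh38.p14, CXCL6 and PF4V1 lie between CXCL8 and CXCL1, and PF4, PPBP and CXCL5 follow CXCL1. These are also chemokine genes of the same cluster, and their hg19 bins were not assigned here.

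Contact runs, which are series of consecutive usable bins in contact in 1 cell, were short at this pair. The run through the CXCL8 bin had a median of 0.300 Mb over 37 cells and reached 1.00 Mb. The run through the CXCL1 bin had a median of 0.200 Mb over 72 cells, and in 21 of them it was the CXCL1 bin alone. Over all contact bins of all cells the median run was 1.10 Mb. The ratio of the CXCL1 bin in contact had a median of 1.72, and that of the CXCL8 bin 1.40, against a median of 1.99 over the 8946 bins at 20 to under 80%.

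CXCL10 is induced by interferon and attracts activated T cells through CXCR3. Its bin, 76900001 to 77000000 on chromosome 4, was in contact in 0 of 118 cells, which allows a frequency of up to 2.54%, or up to 3.08% as the exact upper bound. Its ratio had a lowest value and a median of 0 and a highest of 0.991, in cell 98, and 103 cells had no read there. The bin could be measured as well as others, since a ratio of 1 stood for a median of 5.49 reads. CXCL10 thus lay just below the contact value in 1 cell and far below it in nearly all others. No contact was seen in the neighbours on either side of it. The 14 bins from CXCL10 up to CXCL13 had 3.03% ± 6.70 in contact per cell (SD, n = 118), and 92 cells had none there. Toward CXCL1, contact was more frequent again, with 39.8% at 76300001 to 76400000 and the window's highest bin, 63.6%, at 76100001 to 76200000. The lowest bins of that window were at 0%, for example 76600001 to 76700000. CXCL9 and ART3 precede CXCL10 in gene order and CXCL11 follows it. CXCL9 and CXCL11 encode other ligands of CXCR3. The nearest bin at 80% or more was 4.50 Mb away.

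The 21 bins between CXCL1 and CXCL10 held 38.6% ± 21.7 in contact per cell (SD, n = 118), and 12 cells had no contact there. Contact was uneven along the stretch. Its bins ranged from 0 to 69.5%, with 39.0% in the bin beside CXCL1 and 0% in the bin beside CXCL10. The chemokine genes PF4, PPBP, CXCL5, CXCL3, CXCL2 and CXCL9 lie between CXCL1 and CXCL10 in the gene order of GRCh38.p14, among 22 protein-coding genes.

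CXCL13 attracts B cells through CXCR5 and is known for the layout of lymphoid follicles. It spans 2 bins, 78400001 to 78500000 and 78500001 to 78600000. The first had a lowest ratio of 0, a median of 0.169 and a highest of 4.36, in cell 108, with no read in 56 cells. The second had a lowest ratio and a median of 0 and a highest of 1.97, with no read in 66 cells. Contact was thus seen in a minority of cells at either bin. The first bin was in contact in 25 cells, or 21.2% (exact 95% interval 14.2 to 29.7%), with 32.1% of cells 96 to 124 and 17.8% of cells 1 to 94. The second was in contact in 11 cells, or 9.32% (4.75 to 16.1%), with 14.3% and 7.78%. At least 1 of the 2 bins was in contact in 27 cells, or 22.9% (15.7 to 31.5%). The first bin was in contact without the second in 16 cells and the reverse held in 2, and it was in contact without its lower neighbour in 19 cells and the reverse held in 2. It therefore stood above both neighbours. The gene bins together were 7.12 percentage points ± 25.8 above the flanks, which had 8.14%. Runs through the first bin had a median of 0.100 Mb, the lowest among the 6 gene bins with 5 or more contact cells, and 14 of 25 were that bin alone. The highest flank bin was 79000001 to 79100000 at 29.7%, the lowest flank bins such as 77900001 to 78000000 were at 0%, and the nearest bin at 80% or more lay 2.90 Mb away. CCNG2 precedes and CNOT6L follows CXCL13 in gene order, and neither is a chemokine gene.

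CXCL12 acts through CXCR4 and is known to keep blood stem cells in the bone marrow. Its bin, 44800001 to 44900000 on chromosome 10, had a lowest ratio of 0, a median of 0.151 and a highest of 2.06, in cell 96, and 49 cells had no read there. It was in contact in 13 cells, or 11.0% (exact 95% interval 6.00 to 18.1%), with 25.0% of cells 96 to 124 and 6.67% of cells 1 to 94. In position it was a dip between more frequent bins. The lower neighbour had 26.3% and the higher neighbour 27.1%. CXCL12 was in contact without the lower neighbour in 3 cells and the reverse held in 21, and without the higher neighbour in 5 cells and the reverse held in 24. CXCL12 alone thus made up 12.5% (2.66 to 32.4%) and 17.2% (5.85 to 35.8%) of the cells that differed. Contact reached 48.3% at 44600001 to 44700000, the highest bin of the window, and 39.8% at 45000001 to 45100000. The ratio in contact had a median of 1.20, against 1.45 over the bins under 20%. The lowest bins were at 0%, for example 43800001 to 43900000, and the nearest bin at 80% or more was 7.60 Mb away. ZNF32 precedes and TMEM72 follows CXCL12 in gene order.

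CCL20 attracts dendritic cells and lymphocytes through CCR6. Its bin, 228600001 to 228700000 on chromosome 2, had a lowest ratio of 0, a median of 1.18 and a highest of 7.11, in cell 114, the highest value of any gene bin in any cell. There were no reads in 15 cells, all of them numbered 1 to 94. The bin was in contact in 70 cells, or 59.3% (exact 95% interval 49.9 to 68.3%), with 82.1% of cells 96 to 124 and 52.2% of cells 1 to 94. CCL20 was thus the single gene bin above 80% in either set of cells. Cells in contact at CCL20 had a median of 147806 reads and cells not in contact had 120608, and the part of depth in this difference was not tested.

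CCL20 lay on the edge of a region of frequent contact. The 10 bins at higher positions had 85.0% ± 18.2 in contact per cell, and the 10 at lower positions had 41.7% ± 24.6 (SD, n = 118). No cell lacked contact in the higher bins, and 9 cells lacked it in the lower bins. The nearest bin at 80% or more lay 0.200 Mb away, at 228800001 to 228900000 with 83.9%, and the highest, 229300001 to 229400000, had 94.1%. The lowest bin of the window, 228300001 to 228400000 at 5.93%, lay on the other side. CCL20 could not be told from its direct neighbours, since it was in contact without the lower neighbour in 13 cells against 20 and without the higher neighbour in 18 cells against 14. The intervals of these shares, 22.9 to 57.9% and 37.7 to 73.6%, held 50%. Runs through the CCL20 bin had a median of 1.10 Mb over 70 cells, reached 2.40 Mb, and spanned at least 1 Mb in 39. The other 5 gene bins with 5 or more contact cells had median runs of 0.100 to 0.500 Mb. In gene order, SCYGR8 precedes CCL20, and DAW1, SPHKAP and PID1 follow it.

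**Figure D3:**
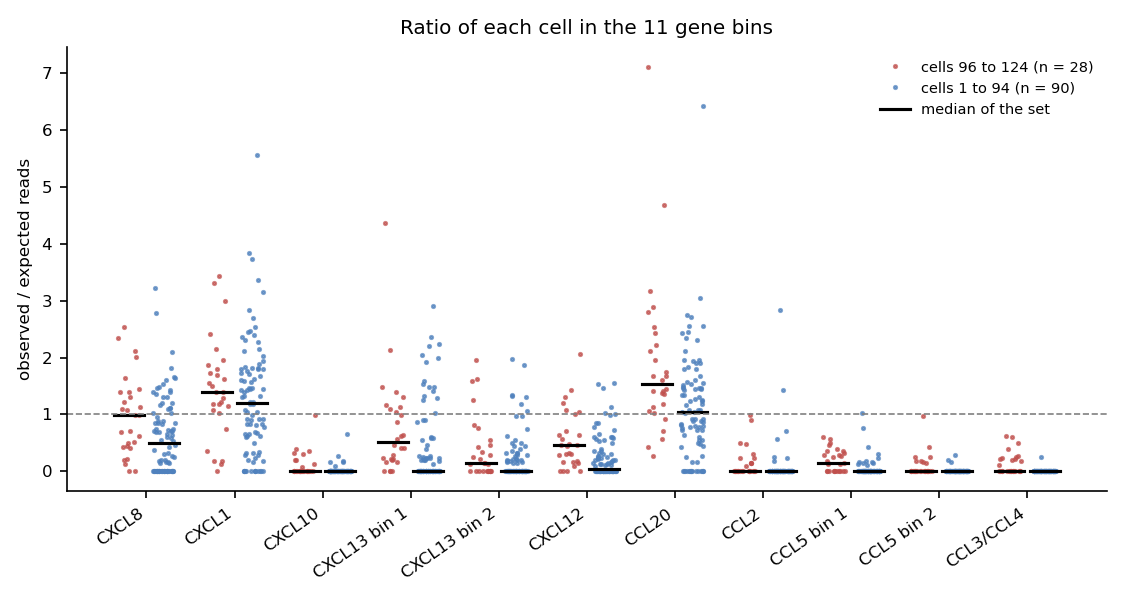
Ratio of observed to expected reads (y axis) of every cell in the 11 gene bins, with 1 point per cell, cells 96 to 124 (n = 28) left and cells 1 to 94 (n = 90) right within each bin, bars at the median of the set and a dashed line at the contact value of 1. The medians of CXCL1 and CCL20 lie above 1 in both sets, those of CXCL10, CCL2, the second CCL5 bin and CCL3/CCL4 lie at 0 in both, and those of the other bins lie between 0 and 1 or at 0.

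The CC genes of chromosome 17 attract monocytes, macrophages and T cells, and CCL2 acts through CCR2. They were almost without contact. The CCL2 bin, 32500001 to 32600000, had a lowest ratio and a median of 0 and a highest of 2.84, with no read in 100 cells. The first CCL5 bin, 34100001 to 34200000, reached 1.02 with no read in 89 cells, and the second, 34200001 to 34300000, reached 0.968 with no read in 107 cells. The shared bin of CCL3 and CCL4, 34400001 to 34500000, reached 0.617, with no read in 105 cells. In each of these bins the median over all 118 cells was 0, but the sets of cells differed in how many had reads. At CCL2, 60.7% of cells 96 to 124 and 92.2% of cells 1 to 94 had no read. At the first CCL5 bin it was 39.3 against 86.7%, and the median ratio of cells 96 to 124 was 0.139, against 0 for cells 1 to 94. At CCL3 and CCL4 it was 57.1 against 98.9%. Reads below the contact value were thus more common in cells 96 to 124 at these genes. CCL2 was in contact in 2 cells, or 1.69% (exact 95% interval 0.206 to 5.99%), and CCL5 in 1 cell, or 0.847% (0.0215 to 4.63%). CCL3 and CCL4 were in contact in 0 of 118 cells, which allows up to 2.54%, or 3.08% as the exact bound.

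The contacts in cell 66 rested on few reads. In cell 66 the CCL2 ratio of 2.84 stood on 5 reads and the CCL5 ratio of 1.02 on 2 reads, and this cell had 21.8% of its bins in contact. In cell 87 the CCL2 ratio of 1.43 stood on 10 reads, where a ratio of 1 in that bin stood for a median of 5.10 reads over cells. The single CCL5 contact was lost when the 14 cells with under 3 reads per ratio of 1 were left out, which gave 0%, and also at 50000 reads per cell. None of the CCL2 and CCL5 contacts was in cells 96 to 124, where 0 of 28 cells allows a frequency of up to 10.7%. In the CCL3 and CCL4 bin a ratio of 1 stood for a median of 3.88 reads, the lowest of the gene bins, so this bin had the fewest reads behind a call.

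The CCL2 bin, at 1.69%, lay between a lower neighbour at 9.32% and a higher neighbour at 5.93%. The 10 bins at positions below CCL2 had 7.88% ± 21.9 in contact per cell (SD, n = 118), with 14.6% in cells 96 to 124 and 5.78% in cells 1 to 94. Some contact among these 10 bins was seen in 24 cells, and 2 of those 24 had CCL2 in contact. More than 50% of these bins were in contact in 8 cells, and CCL2 was in contact in 2 of the 8. CCL2 was never in contact without its lower neighbour, which was in contact without CCL2 in 9 cells (0%, exact 95% interval 0 to 33.6%). The higher neighbour was in contact without CCL2 in 5 cells and the reverse held in 0 (0%, 0 to 52.2%), an interval that holds 50%. The 15 bins between CCL2 and CCL5 had 0.960% ± 4.29, and the 4 bins from CCL5 through the CCL3 and CCL4 bin had 0.212% ± 2.30. Contact was therefore lower toward CCL3 and CCL4. In the whole window of 4.0 Mb, 2.59% ± 7.36 of bins were in contact per cell, 93 cells had no contact, and the highest bin was 31800001 to 31900000 at 11.0%. The lowest bins of the window were at 0%, for example 32900001 to 33000000. The nearest bin at 80% or more lay 35.7 Mb from CCL2 and 33.8 Mb from CCL3 and CCL4. In gene order, ASIC2, an ion channel gene, precedes CCL2, and CCL7, CCL11 and CCL8 follow it. CCL16, CCL14, CCL15, CCL23 and CCL18 lie between CCL5 and CCL3.

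Chromosome 17 as a whole was seldom in contact. It had a mean frequency of 9.45%, and 51.7% of its usable bins lay above the frequency of 0% of the CCL3 and CCL4 bin. CCL2 at 1.69% stood above 62.4% of the bins of chromosome 17 and above 29.7% of all usable bins. On chromosome 4, with a mean of 46.2%, CXCL1 stood above 53.5% of the bins of its chromosome and CXCL8 above 39.4%. CXCL10, at 0%, was on the low side even there, with 89.8% of the bins of chromosome 4 higher. On chromosome 2, with a mean of 34.9%, CCL20 stood above 65.4% of bins, and on chromosome 10, with 29.5%, CXCL12 stood above 47.7%.

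The CXC genes of chromosome 4 and the CC genes of chromosome 17 were compared within each cell. Per cell, 24.6% ± 21.3 of the 5 chromosome 4 gene bins and 0.636% ± 5.13 of the 4 chromosome 17 gene bins were in contact (SD, n = 118). The difference was 23.9 percentage points ± 21.7. It was above 0 in 79 cells, below 0 in 2 and 0 in 37. The 2 cells below 0 had equal numbers of gene bins in contact on both chromosomes. Their sign comes from dividing by 5 and by 4 bins. Cells 96 to 124 had a difference of 34.3 points, and cells 1 to 94 had 20.7 points. The 2 kinds of gene do not separate by family, since CCL20, a CC gene on chromosome 2, was at 59.3% and CXCL10, a CXC gene, at 0%.

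Ordered by frequency, CXCL1 at 61.0% came first, followed by CCL20 at 59.3%, CXCL8 at 31.4%, CXCL13 at 22.9%, CXCL12 at 11.0%, CCL2 at 1.69%, CCL5 at 0.847%, and CXCL10, CCL3 and CCL4 at 0%. CXCL13 is counted here with contact in either of its 2 bins, which gives it more chances than a gene with 1 bin. Neighbours in this order were compared through the cells in which just 1 of them was in contact. CXCL1 and CCL20 were not told apart, with CXCL1 alone in 29 cells and CCL20 alone in 27 (CXCL1 share 51.8%, exact 95% interval 38.0 to 65.3%). CXCL8 alone was found in 17 cells and CCL20 alone in 50 (CXCL8 share 25.4%, 15.5 to 37.5%), so CCL20 was higher. With either CXCL13 bin counted, CXCL13 and CXCL8 were not told apart, with CXCL13 alone in 17 cells and CXCL8 alone in 27, a difference of -8.47 percentage points (CXCL8 share 61.4% of the 44 cells, 45.5 to 75.6%). By single bins, the first CXCL13 bin was not told apart from CXCL8, with 17 cells against 29 (share 37.0%, 23.2 to 52.5%). The second CXCL13 bin was lower than CXCL8, with 6 cells against 32 (15.8%, 6.02 to 31.3%). CXCL13 alone was found in 21 cells and CXCL12 alone in 7 (CXCL13 share 75.0%, 55.1 to 89.3%). By single bins, the first CXCL13 bin was higher than CXCL12, with 19 cells against 7 (share 73.1%, 52.2 to 88.4%), and the second was not told apart from it, with 8 cells against 10 (44.4%, 21.5 to 69.2%). CXCL12 alone was found in 13 cells and CCL2 alone in 2 (CXCL12 share 86.7%, 59.5 to 98.3%). CCL2, CCL5, CXCL10, CCL3 and CCL4 were not told apart from each other. Of 44 pairs of genes in different bins, the interval excluded 50% in 33. CCL3 and CCL4 share a bin, so each pair with CCL4 repeats the pair with CCL3 in this count. A pair with a gene at 0% can differ in 1 direction only. These intervals are not adjusted for the number of pairs, and treat single cells as units.

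The numbers of genes in contact per cell were spread over a range of 0 to 5 of the 10. The mean was 1.88 ± 1.18 genes (SD, n = 118), with 2.64 ± 1.13 in cells 96 to 124 and 1.64 ± 1.09 in cells 1 to 94. No gene was in contact in 15 cells, all numbered 1 to 94, and 5 genes were in contact in 2 cells, both numbered 96 to 124. Cells fell into 24 combinations of genes, none included. The most common were CCL20 alone in 20 cells, CXCL1 with CCL20 in 17 cells, and CXCL8 with CXCL1 and CCL20 in 12 cells. CXCL8 with CXCL1 was found in 10 cells and CXCL1 alone in 8. The number of genes in contact had a correlation of 0.277 with the contact share of the cell over 118 cells, which comes from the same values. The same correlation was -0.244 within cells 96 to 124 and 0.252 within cells 1 to 94, so its sign was not shared by the sets. Cells in contact had more reads than cells not in contact at each of the 5 genes with over 2 contacts, with medians of 138719 against 135207 at CXCL8, 138212 against 131034 at CXCL1, 155136 against 135295 at CXCL13 and 161613 against 134398 at CXCL12, beside those at CCL20 above. The part of depth in these frequencies was not tested. With each cell at 50000 reads and 9 shallower cells left out, CXCL1 was at 52.3%, CCL20 at 58.7%, CXCL8 at 34.9%, the CXCL13 bins at 25.7 and 5.50% and CXCL12 at 11.9%, so single genes moved in both directions.

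**Figure D4:**
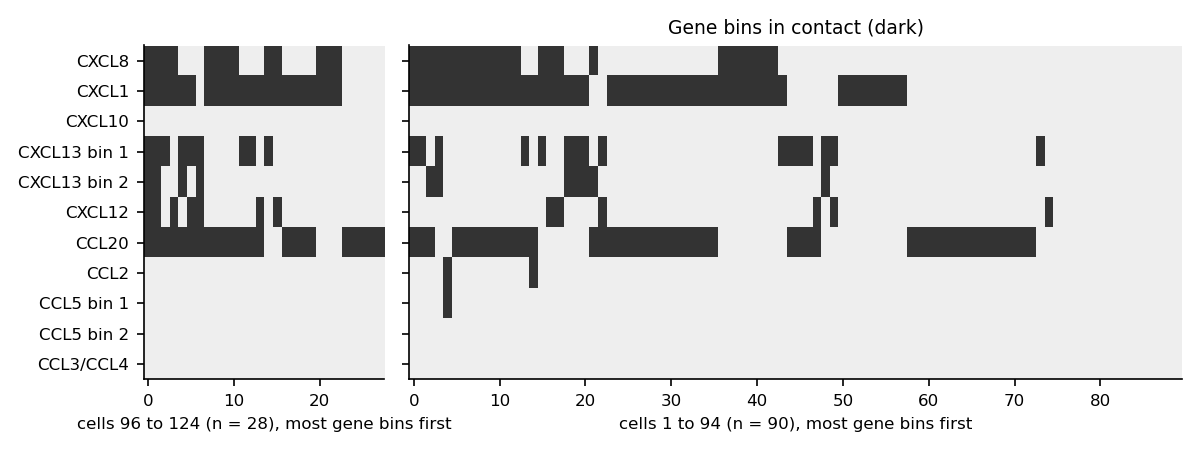
Gene bins (rows) in contact (dark) in each cell (columns), for cells 96 to 124 (left, n = 28) and cells 1 to 94 (right, n = 90), with the cells ordered by the number of gene bins in contact. Dark cells fill most of the CXCL1 and CCL20 rows, the CXCL8 row is dark almost only where the CXCL1 row is, and the rows of CXCL10, the second CCL5 bin and CCL3/CCL4 hold none.

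Coordination between gene bins at 20 to under 80% was described as the Pearson correlation of their contacts over 118 cells, after the contact share of each cell was removed by regression. All pairs share the same cells and libraries. CXCL8 and CXCL1 had a correlation of 0.499, with 0.461 in cells 96 to 124 and 0.488 in cells 1 to 94. Over 6778 pairs of neighbouring bins in this frequency class the mean was 0.473, and 55.6% of pairs lay below CXCL8 and CXCL1. A difference in frequency limits the correlation that 2 bins can reach, and it was 29.7 points here against a median of 6.78 points in those pairs. Without an adjustment for that limit, the correlation of CXCL8 and CXCL1 was near the mean of neighbouring bins. It was 0.260 at 50000 reads per cell and 0.0654 at a contact value of 2.

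Between loci the correlations over all 118 cells were small. CXCL1 and the first CXCL13 bin had 0.0692, CXCL8 and that bin had 0.00429, CCL20 and CXCL8 had -0.107, and CCL20 and CXCL1 had -0.0449. The gene at another locus most like it in contact over cells was CXCL13 for CXCL8, CXCL1 and CCL20, the last with -0.00957, and CXCL1 for CXCL13. Within cells 96 to 124, CCL20 had -0.491 with CXCL8 and -0.221 with CXCL1, against -0.0451 and -0.0529 within cells 1 to 94. The sets thus differed in size here, with 28 cells in the first, and whether they differ was not tested. Around CXCL8, CXCL1 and CCL20 the mean correlation was lower at longer distance. At 0.2 to 0.5 Mb it averaged 0.263 over 6 bins for CXCL8, 0.349 over 6 bins for CXCL1 and 0.183 over 3 bins for CCL20, and at 1.1 to 2.0 Mb it averaged 0.164, 0.171 and 0.0908. Over all such bins of the genome the mean was 0.430 at 0.2 Mb, 0.362 at 0.5 Mb, 0.294 at 1.0 Mb and 0.222 at 2.0 Mb. The CCL20 averages lay below those of CXCL8 and CXCL1 at each of these distances, in bins that share the cells but differ in number. The first CXCL13 bin had only 3 bins of this frequency class within 2.0 Mb. Their correlations with it were 0.342 at 0.6 Mb, 0.342 at 0.7 Mb and 0.406 at 0.9 Mb, without a fall.

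**Figure D5:**
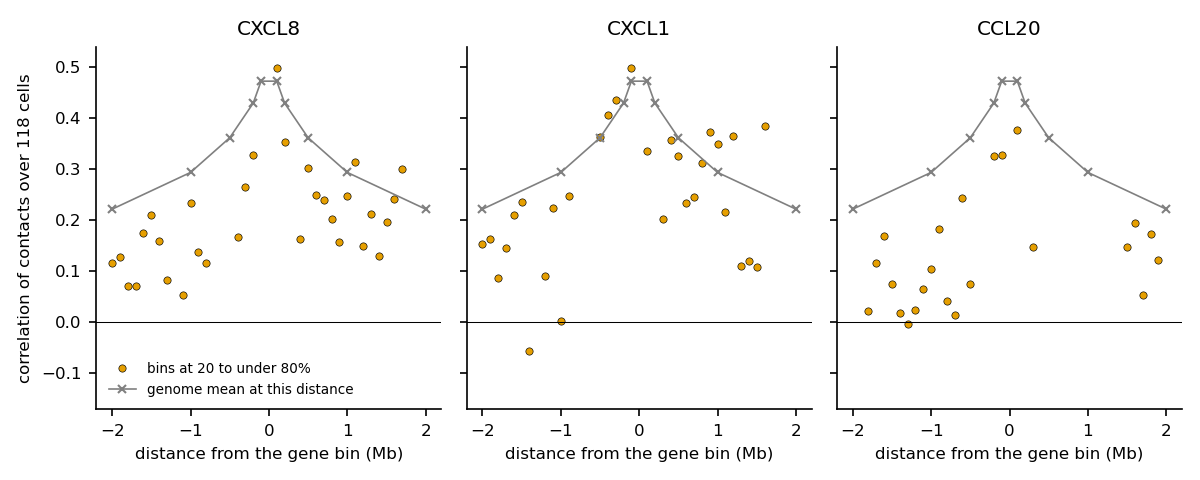
Correlation over 118 cells (y axis) of the contacts of the CXCL8, CXCL1 or CCL20 bin with each other bin at 20 to under 80% within 2 Mb, against the distance in Mb, with crosses for the mean of all such bin pairs of the genome at that distance. CXCL8 and CXCL1 reach 0.499 with each other, and most points of each gene shown lie below the line that joins the crosses.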

How the data were processed

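Single-cell DamID of LaminB1 was measured in KBM7 clone 14. The authors deposited 1 table that holds, for 118 of 124 labelled cells, the ratio of observed over expected reads in 100 kb bins. The unit was read from the table and its values. The making of the expected part is not given in the sources used. Per the submitters' processing notes, cutadapt, Bowtie2 2.1.0 and the build hg19 were used, and the role of each is not given there. Cells 33, 34, 44, 86, 95 and 120 were not analysed here.

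Bins with a missing value in any cell, or with 0 throughout, were left out, and 26426 of 30376 remained. Read numbers were recovered by dividing every ratio by a step specific to its bin and to its cell, which gave whole numbers, within 0.02 reads, for 100% of 1697706 values above 0. Reads carry no molecular identifiers, so intervals cover counting error only. Contact was a ratio of at least 1. Promoters and gene order came from RefSeq tables of GRCh38.p14, and no hg19 annotation was used. Python 3.11.15, numpy 2.4.6, pandas 2.3.3, scipy 1.17.1 and matplotlib 3.10.9 were used, and the calculations were tested on simulated data.

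All 10 genes are named, with the highest and lowest bin of each window, the nearest bin at 80% or more, and, for each gene at 20 to under 80%, the gene at another locus with the most similar contacts. The genes, lists and classes were chosen with earlier results of these data known. The 8 alternatives were contact values of 0.5 and 2, an equal contact share of 33% per cell, leaving out 14 shallow cells, each set of cells by number alone, 50000 reads per cell (9 shallower cells left out), and the gene bin averaged with its neighbours. The equal share was not reached in 9 cells, the lowest at 22.8%, since bins without reads were not called. A comparison of each gene bin with the bins around its own gene was chosen after seeing the data.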

Additional observations from a re-analysis of the deposited data

How the results depend on the processing

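The first 8 alternatives gave 158 values for 20 results, of which 127 kept to their criterion, 31 moved and 0 changed sign past it. The criterion was the exact 95% interval for a frequency, the SD over cells for a mean or difference, the interval of a correlation and 1.5 times for a count. That SD is the spread between cells, so a mean or difference could change widely and still be counted as kept. For example, the chromosome 4 minus chromosome 17 difference of 23.9 points (SD 21.7) was counted as kept at 5.89 points with a contact value of 2. At a contact value of 0.5 the frequencies were 54.2% for CXCL8, 76.3% for CXCL1, 31.4 and 16.9% for the CXCL13 bins, 25.4% for CXCL12 and 79.7% for CCL20. At a contact value of 2 they were 5.93% for CXCL8, 18.6% for CXCL1, 5.93 and 0% for the CXCL13 bins, 0.847% for CXCL12, 16.9% for CCL20 and 0% for the first CCL5 bin, so that 0 gene bins lay at 20 to under 80% and 11 under 20%. The mean frequency was then 4.47%, the coordination of CXCL8 and CXCL1 was 0.0654, and CXCL13 minus CXCL8 was 0. In cells 96 to 124 alone they were 46.4% for CXCL8, 78.6% for CXCL1, 32.1% for the first CXCL13 bin, 25.0% for CXCL12, 82.1% for CCL20, and 0% for CCL2 and the first CCL5 bin, with 1 gene bin at 80% or more. With neighbours averaged in, CXCL1 was at 43.8%, CXCL12 at 21.5% and the first CXCL13 bin at 12.4%. At 50000 reads per cell the coordination of CXCL8 and CXCL1 was 0.260 and the first CCL5 bin was at 0%, as it was without the 14 shallow cells. The mean coordination between chromosomes, -0.0538, ranged from -0.185 to 0.0364, so it has no stable sign. The chromosome 4 minus chromosome 17 difference kept its sign, from 5.89 to 34.3 points. Gene bins minus the pooled flanks ranged from -6.31 to -4.60 points under alternatives that all keep the unequal weights of the loci. With each gene bin against the bins around its own gene, chosen after seeing the data, the difference turned to 0.0816 points. The pooled sign thus rests on the weights. The cause of these changes was not tested, beyond fewer cells and reads where they were left out. Coordination was not computed with neighbours averaged in, because those bins overlap. No paired analysis was possible because there is 1 group of cells and nothing to pair it with.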
